A study of Homo sapiens with 31 samples.

Results

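The binding of the oncogene EVI1 and its corepressor CTBP2 was examined at the loci of 2 genes, GATA2 and GATA1, of the 20136 protein-coding genes in the annotation used. Each locus was the gene body plus 120 kb on either side, in hg19 coordinates and GENCODE release 44 gene models. GATA2 (ENSG00000179348.13) lies on the minus strand of chromosome 3 at 128198270 to 128212044, so its window ran from 128078270 to 128332044. GATA1 (ENSG00000102145.16) lies on the plus strand of chromosome X at 48644948 to 48652718, and its window ran from 48524948 to 48772718. All 13 deposited ChIP-seq peak lists were searched, and 265 of their 533140 peaks overlapped a window. Merged over the lists, these peaks formed 49 sites at GATA2 and 16 at GATA1, of 131683 in the genome.

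The study profiled EVI1, CTBP2, other nuclear proteins and histone marks in human leukemia cell lines, with 31 samples in all including inputs. MUTZ3, an acute myeloid leukemia line, was profiled unmodified with 1 EVI1 library and 1 CTBP2 library. MUTZ3 cells carrying pCW-4xPLDLS, a dox-inducible peptide with 4 repeats of the motif through which EVI1 binds CTBP2, were profiled at 72 h untreated or with dox, with 2 libraries per protein and treatment. CTBP2 was also profiled in 2 libraries of MUTZ3 cells with retroviral 4xPLASS, the mutated control peptide, and in 1 library of MOLM1, a line from chronic myeloid leukemia in blast crisis. The MOLM1 cells came from a clone that carries an EVI1-directed hairpin under dox control, and dox was not given. The paper describes both MUTZ3 and MOLM1 as rearranged at MECOM, the locus that holds EVI1. The inducible MUTZ3 cells were a bulk population, their untreated cells carried the peptide construct too, and both proteins shared 1 input per treatment. Unmodified cells were doubly crosslinked for EVI1, with DSG and formaldehyde, and singly for CTBP2, whereas the labels give the double crosslink for all other lists. Not analysed here were CTBP2 libraries with retroviral 4xPLDLS, and MOLM1 libraries of EVI1 and of CTBP2 with dox. The EVI1 lists held 21505 to 72214 peaks and the CTBP2 lists 6688 to 64569. They hold no reads, so depth is unknown and its part in any difference between lists was not tested. The labels do not say whether the replicates came from separate cultures, so their spread may be technical.

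GATA2 and GATA1 are zinc-finger transcription factors that bind the letters GATA. GATA2 maintains blood stem and progenitor cells, and GATA1 takes over from it as cells become erythroid or megakaryocytic. GATA2 is regulated from an internal promoter, from an enhancer in one of its introns and from a distal enhancer far upstream. In acute myeloid leukemia with certain rearrangements of the long arm of chromosome 3, that distal enhancer is moved beside the EVI1 gene. Reads aligned to the reference sequence cannot tell the normal from the rearranged copy, so values at the distal enhancer may come from either.

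Sequence around the summit of EVI1 binding in untreated replicate 1 is printed for the 4 sites on which the results turn: the strongest site of the GATA2 window, the sites within an intron of GATA2 and of GATA1, and the site, of 3 where EVI1 was higher in both dox libraries, with the largest log2 difference. Each run holds 75 bases on either side of the summit, from hg19, 5′ to 3′, with the GATA letters AGATAA on either strand in capitals.
GATA2 distal site (chr3:128322729-128322879, plus strand): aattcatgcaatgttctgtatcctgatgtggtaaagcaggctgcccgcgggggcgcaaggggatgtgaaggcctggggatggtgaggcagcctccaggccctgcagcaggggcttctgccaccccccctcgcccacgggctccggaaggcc
GATA2 intronic site (chr3:128202089-128202239, plus strand): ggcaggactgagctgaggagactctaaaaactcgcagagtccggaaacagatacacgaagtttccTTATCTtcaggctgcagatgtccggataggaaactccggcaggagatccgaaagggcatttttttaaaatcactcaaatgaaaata
GATA1 intronic site (chrX:48648020-48648170, plus strand): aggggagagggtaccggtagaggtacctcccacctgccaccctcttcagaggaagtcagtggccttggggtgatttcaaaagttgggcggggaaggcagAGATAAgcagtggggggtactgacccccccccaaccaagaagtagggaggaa
HDAC6 upstream site (chrX:48659062-48659212, plus strand): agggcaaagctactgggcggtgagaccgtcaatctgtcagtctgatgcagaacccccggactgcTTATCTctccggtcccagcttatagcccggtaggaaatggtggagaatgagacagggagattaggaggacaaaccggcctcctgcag
In the GATA2 intron, the GATA letters stood 8 bases from an E-box, the letters CATCTG, bound by partner proteins of GATA factors. The plus strand at chr3:128202154-128202173 reads TTATCTtcaggctgCAGATG, so on the minus strand, which encodes GATA2, the E-box precedes AGATAA. The EVI1 summit of untreated replicate 1 lay 1 bp from the middle of this pair, the CTBP2 summit of untreated replicate 2 lay 11 bp from it and the MOLM1 CTBP2 summit 7 bp. In the other 4 libraries with a peak here, summits lay 304 to 604 bp away, or 317 bp on the other side. Of 39661 EVI1 sites on the main chromosomes called in both untreated libraries, 12 (0.0303%) had both letter groups at this spacing within 150 bp of the summit. This pair was chosen for the search with the position of the site known.

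Single motifs were counted as well. AGATAA on either strand lay within 150 bp of the best summit at 7 of 49 GATA2 sites and at 3 of 16 GATA1 sites, against 11.3% of the 39661 EVI1 sites. ACAAGATA, which overlaps the GATA letters and is close to the sequence recognised by the first zinc fingers of EVI1, was at 0 sites of either window and at 0.724% of all EVI1 sites. GATGAG, part of the sequence recognised by its second group of fingers, was at 5 GATA2 and 3 GATA1 sites, against 19.2%. The GATA2 distal site had 0 matches to any of the 3 words within this distance.

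The strongest binding at either locus was at the GATA2 distal site, an intergenic interval at chr3:128321781-128323656 whose best summit lay 110.763 kb upstream of the GATA2 transcription start (TSS). The nearest protein-coding TSS was that of RPN1, 77111 bp away. It was called in 12 of 13 lists, all but 4xPLASS replicate 1, and was the strongest peak of the GATA2 window in each of them except MOLM1. The 12 summits spanned 246 bp, and those of the 5 EVI1 libraries 149 bp.

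The deposited fold enrichment, the signal at a summit relative to the local background, was used for strength. For EVI1 at the distal site it was 19.2 in unmodified cells, 42.1 and 74.4 in untreated inducible cells, and 44.3 and 32.4 with dox. These peaks held ranks 559, 189, 65, 240 and 431 of their lists, so each lay in the top 2.6%. Values with dox overlapped those without it (log2 difference -0.57, 2 libraries against 2, exact two-sided permutation p = 0.667).

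For CTBP2 at the same site, fold enrichment was 11.3 in unmodified cells, 10.96 in 4xPLASS replicate 2, 33.0 and 20.7 in untreated inducible cells, 10.2 and 11.1 with dox, and 21.1 in MOLM1. Both dox values were below both untreated values. They were close to those of unmodified cells and of 4xPLASS replicate 2. Those lists differ in length, and for unmodified cells in crosslink, so the levels cannot be set on one scale. The log2 difference, dox against untreated, was -1.29 (exact two-sided permutation p = 0.333, the smallest that 2 against 2 can give). CTBP2 was lower in both dox libraries at 72.5% of the 14297 sites called in all 4 libraries and higher at 1.96%, with a median log2 difference of -0.86 over them, and 22.7% of these sites had a lower log2 difference than the distal site. The peak was still called in both dox libraries, at 4.62% and 5.91% of the way down these shorter lists, against 0.569% and 1.75% untreated.

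**Figure D1:**
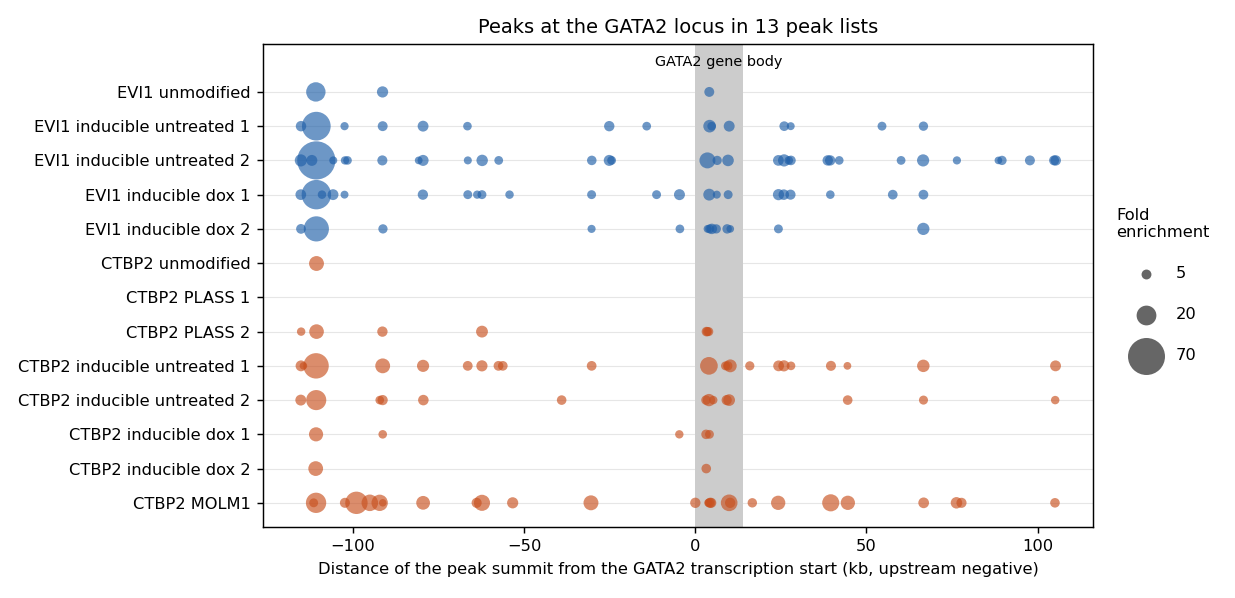
Peaks of the 13 lists at the GATA2 locus, with the distance of each summit from the GATA2 transcription start in kb on the horizontal axis and 1 row per list. Point area is proportional to fold enrichment, EVI1 is blue, CTBP2 is orange and the grey band is the gene body. The column of large points on the left is the distal site at 110.763 kb upstream, while the MOLM1 row has a second group of strong peaks beside it.

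Other sites 100 to 120 kb upstream of GATA2 were weaker. The site at 115.280 kb upstream was called in 7 lists, with EVI1 at 5.6 and 7.5 untreated and 5.9 and 4.9 with dox. CTBP2 there was at 6.1 and 6.1 untreated and 3.6 in 4xPLASS replicate 2, and CTBP2 was not called with dox. The remaining 5 sites of this interval were called in 1 to 4 lists with fold enrichment of at most 6.1. All 5 had EVI1, and 1 had CTBP2, in MOLM1. At 91.363 kb upstream, a site of 9 lists had CTBP2 at 11.2 and 5.3 untreated and 3.8 in dox replicate 1, with none in dox replicate 2, while EVI1 was at 5.0 and 5.2 untreated and 4.4 in dox replicate 2 alone.

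Within the GATA2 gene the most often called site, of 11 lists, covered the internal promoter (chr3:128205349-128209400, with 4 annotated GATA2 starts inside it). It overlaps GATA2-AS1, an antisense RNA gene, so the peaks cannot be assigned to either gene. EVI1 fold enrichment was 5.0 in unmodified cells, 8.2 and 13.1 in untreated inducible cells, and 7.2 and 5.6 with dox. CTBP2 was at 16.0 and 7.8 untreated, 4.6 and 4.7 with dox, 4.7 in 4xPLASS replicate 2 and 5.4 in MOLM1, with no peak in unmodified cells. The strongest peak of each list within this wide interval was compared. For both proteins it was lower in both dox libraries than in both untreated ones. The log2 differences were -0.70 for EVI1 and -1.26 for CTBP2 (exact permutation p = 0.333 for each). These peaks had different summits, for CTBP2 at 128208085 and 128208074 untreated and at 128208925 and 128208862 with dox. Near the dox summits, untreated replicate 2 had a further CTBP2 peak at 4.6. Near the untreated summits, dox replicate 1 had a CTBP2 peak at 4.0 and dox replicate 2 had none. The upstream GATA2 start had a peak in MOLM1 alone, 11 bp from it, at a fold enrichment of 5.5.

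The GATA2 intronic site (chr3:128201627-128203303, best summit 9.874 kb downstream of the TSS) lies where the intronic enhancer of GATA2 is known. EVI1 was at 6.1 and 6.9 untreated and at 4.1 and 4.5 with dox, lower in both dox libraries (log2 difference -0.59, exact permutation p = 0.333). These strongest peaks had different summits, at 128202164 and 128202504 untreated and at 128202467 and 128202767 with dox. The dox replicate 2 peak that covered the pair of GATA letters and E-box was at 2.98. CTBP2 was at 8.5 and 7.0 untreated and had no peak in either dox library. MOLM1 had the highest value of any list here, 14.2, and neither unmodified list nor 4xPLASS list had a peak. These lists differ in length and cell line, so their levels cannot be set on one scale. With all CTBP2 sites ranked by untreated strength and divided into 5 equal groups, 29.0% of those in the group that holds the stronger interval of this site were called in both dox libraries.

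**Figure D2:**
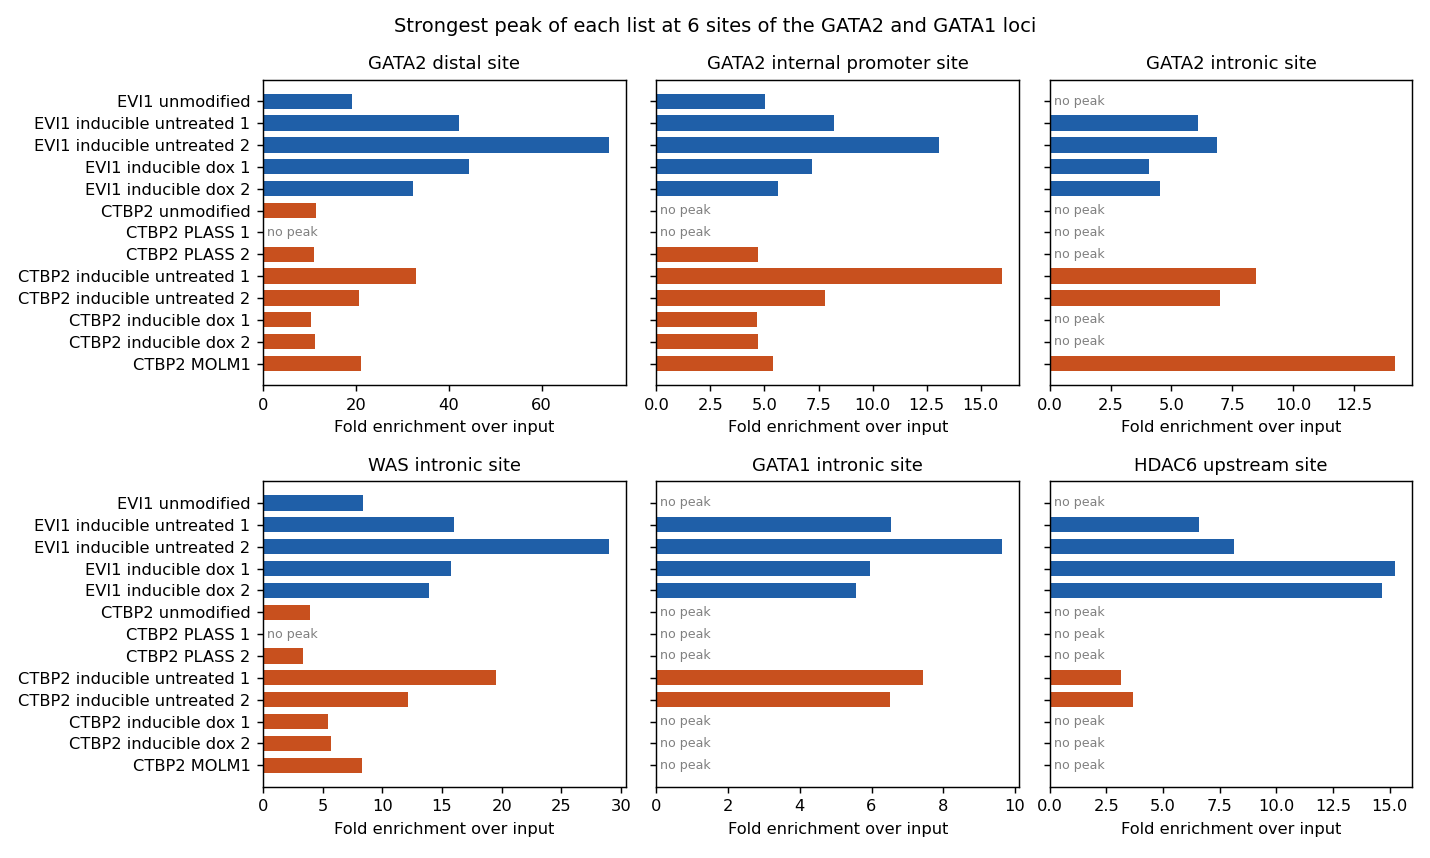
Fold enrichment over input of the strongest peak of each of the 13 lists at 6 sites, 3 of the GATA2 window in the upper row and 3 of the GATA1 window in the lower row. Each bar is 1 library, blue for EVI1 and orange for CTBP2, and axes differ between panels. CTBP2 has no dox peak at the GATA2 and GATA1 intronic sites, and EVI1 at the HDAC6 upstream site stands at 15.2 and 14.7 with dox against 6.6 and 8.1 untreated.

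In the GATA1 window binding lay mostly at neighbouring genes. Of its 16 sites, 8 were within 1 kb of a protein-coding TSS, against 2 of 49 at GATA2. Only the outermost start of each gene was used. The genome share and the number of genes in each window were not set beside these counts. Of the 16 sites, 1 had the GATA1 TSS as its nearest. That site, in an intron of GATA1 (chrX:48647788-48648592, 3.108 kb downstream of the TSS), was called in 6 of the 8 inducible libraries and in no other list. EVI1 was at 6.5 and 9.6 untreated and 5.9 and 5.6 with dox, a log2 difference of -0.46 (exact permutation p = 0.333). CTBP2 was at 7.4 and 6.5 untreated and had no peak in either dox library. No list had a peak at the GATA1 TSS itself.

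The site of most lists in the GATA1 window, 12 of 13, lay within WAS, the gene of the Wiskott-Aldrich syndrome protein (chrX:48541207-48542835, 102.828 kb upstream of the GATA1 TSS). Its best summit was 7135 bp from the outermost annotated WAS start and in no exon. Other WAS starts were not examined, so an intronic site cannot be told from a promoter here. EVI1 there was at 8.4 in unmodified cells, 16.0 and 28.9 in untreated inducible cells and 15.7 and 13.9 with dox. CTBP2 was at 3.9 in unmodified cells, 3.3 in 4xPLASS replicate 2, 19.5 and 12.1 untreated, 5.4 and 5.7 with dox and 8.3 in MOLM1. Both proteins were again lower in both dox libraries, by -0.54 for EVI1 and -1.47 for CTBP2 on the log2 scale (exact permutation p = 0.333 for each), and 14.4% of the CTBP2 sites called in all 4 libraries had a lower log2 difference.

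By the strongest peak of each list within a site, EVI1 was higher in both dox libraries at 3 sites of the GATA1 window. The largest difference lay 650 bp upstream of HDAC6, a histone deacetylase gene, at 14.186 kb downstream of the GATA1 TSS (chrX:48658868-48659475). EVI1 was at 6.6 and 8.1 untreated and at 15.2 and 14.7 with dox, higher in both dox libraries by 1.03 on the log2 scale (exact permutation p = 0.333). Of the 31593 EVI1 sites called in all 4 libraries, 98.3% had a lower log2 difference, 13.4% were higher in both dox libraries and 35.3% were lower in both. CTBP2 was weak untreated, at 3.1 and 3.7, and had no peak with dox, nor in unmodified, 4xPLASS or MOLM1 cells. The site was the strongest EVI1 peak of the GATA1 window in dox replicate 2. A separate site, 13 bp upstream of the HDAC6 TSS, was in 7 lists and did have CTBP2 with dox. CTBP2 there was at 5.9 and 4.1 untreated, 4.3 in dox replicate 1 alone and 5.3 in MOLM1, and EVI1 was at 4.0 in untreated replicate 2 alone and at 4.4 and 6.1 with dox.

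Sites near the starts of other genes made up much of the rest. At SLC35A2, 65 bp from its TSS and at the far end of the window, EVI1 was at 16.3 and 16.8 untreated and 13.7 and 12.3 with dox, and CTBP2 at 12.2 and 8.0 untreated and 5.5 and 6.3 with dox, in 11 lists in all. The site by TIMM17B and PQBP1 was in 8 lists, with CTBP2 at 9.9 and 6.0 untreated and none with dox. In one EVI1 interval of this site, EVI1 was at 6.0 and 8.8 untreated and 4.8 and 5.5 with dox. In the other it was at 7.0 and 14.2 untreated and 4.7 and 6.5 with dox. The log2 differences were -0.49 and -0.84 (exact permutation p = 0.333 for each). Of EVI1 sites called in all 4 libraries, 31.5% and 12.6% had a lower difference. At 3 further sites, those near the outermost annotated starts of WAS, SUV39H1 and PQBP1, CTBP2 was called in both untreated libraries, at 2.7 to 8.3, and in neither dox library. EVI1 was called there in all 4 inducible libraries. By the strongest peak of each list, EVI1 was higher in both dox libraries at 2 of these 3. It was at 3.6 and 5.7 untreated and 7.5 and 6.2 with dox at WAS (log2 difference 0.59, above 92.5% of EVI1 sites called in all 4 libraries), and at 5.1 and 6.6 untreated and 8.1 and 6.9 with dox at PQBP1 (0.37, above 85.7%), each with an exact permutation p = 0.333. The PQBP1 dox values had different summits, 48748034 in replicate 1 and 48749021 in replicate 2. Dox replicate 2 had no peak over the first summit. Near the second summit, dox replicate 1 was at 5.3 and untreated replicate 1 at 5.1. The PQBP1 difference thus holds for the whole interval, not for 1 summit. At SUV39H1 the groups overlapped, with 6.2 and 11.96 untreated and 10.3 and 7.5 with dox. Another site of 7 lists, intergenic at 49.045 kb upstream of GATA1, had EVI1 at 10.6 and 14.9 untreated and 15.4 and 12.4 with dox, and CTBP2 at 12.01 and 7.5 untreated and 5.2 in dox replicate 1 alone.

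**Figure D3:**
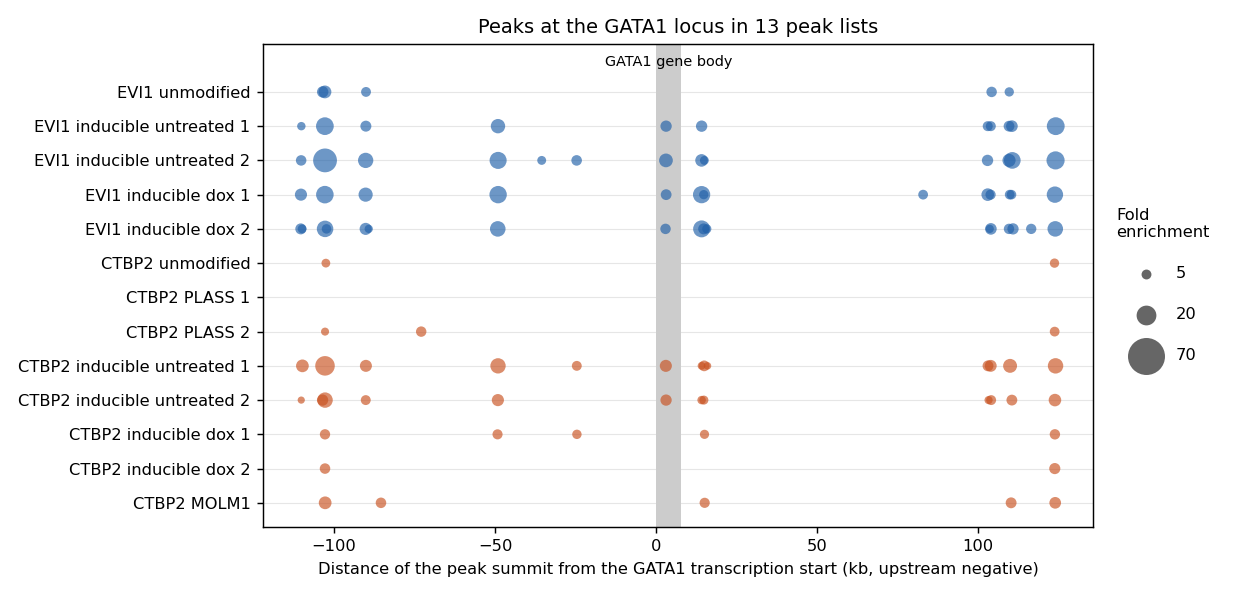
Peaks of the 13 lists at the GATA1 locus, with the distance of each summit from the GATA1 transcription start in kb on the horizontal axis and 1 row per list. Point area is proportional to fold enrichment, EVI1 is blue, CTBP2 is orange and the grey band is the gene body. Of the 8 inducible rows 6 carry a point inside the gene, and the CTBP2 dox rows carry none. The larger points lie at WAS on the left, at the intergenic site 49.045 kb upstream, at HDAC6 just right of the gene and at SLC35A2 on the right.

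Whether the inhibitor peptide changed the number of binding sites was asked by counting peaks per library. CTBP2 had 22 and 14 peaks at GATA2 untreated and 5 and 2 with dox, a difference of means of -14.5 (18.0 ± 5.66 against 3.5 ± 2.12, SD, n = 2 each). At GATA1 it had 13 and 12 untreated and 5 and 2 with dox, a difference of -9 (12.5 ± 0.707 against 3.5 ± 2.12). At both loci the groups did not overlap (exact two-sided permutation p = 0.333 for each, the smallest possible). Fewer CTBP2 peaks in both dox libraries were counted for 80.5% of 19095 protein-coding gene windows of the same kind with a peak, and more for 0.0943%, so both loci did as most genes did.

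EVI1 had 15 and 33 peaks at GATA2 untreated and 22 and 13 with dox, and 11 and 13 at GATA1 untreated and 13 and 17 with dox. These groups overlapped at GATA2 and met at 13 at GATA1, and the difference was -6.5 at GATA2 and 3 at GATA1 (exact two-sided permutation p = 0.667 for each). For EVI1, 19.9% of 19547 gene windows had fewer peaks in both dox libraries and 3.58% had more. At GATA2 the sign rested on untreated replicate 2, the longest EVI1 list, without which the difference was 2.5.

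The dox lists of CTBP2 were shorter than the untreated ones, with 24588 and 23878 peaks against 62232 and 56526. With the CTBP2 lists reduced to their strongest 23878 peaks, CTBP2 counts were 6 and 4 at GATA2 untreated against 5 and 2 with dox, and 8 and 5 at GATA1 against 5 and 2. The differences were then -1.5 and -3 (exact two-sided permutation p = 0.667 for each), so most of the difference in counts went with the length of the lists. The groups then overlapped at GATA2 and met at 5 at GATA1. Whether list length followed binding or depth was not tested.

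Sites that both untreated libraries shared were then looked up in each dox library. Of 10 such CTBP2 sites at GATA2, 2 were called in both dox libraries (the distal site and the internal promoter), 1 in a single one and 7 in neither. Of 11 at GATA1, 2 were called in both (the WAS site of 12 lists and SLC35A2), 2 in a single one and 7 in neither. The genome had 38.4% of 37227 sites in both and 41.0% in neither. The mean share called again over the 2 dox libraries was 25% ± 7.07 at GATA2 and 27.3% ± 12.9 at GATA1, beside 48.7% ± 3.03 in the genome (SD over 2 libraries). With lists of equal size, where 3 sites at GATA2 and 4 at GATA1 remained, the shares were 66.7% and 62.5%, beside 74.3% in the genome. In the genome, 81.4% of CTBP2 sites in the strongest of the 5 groups were called in both dox libraries and 14.7% in the weakest. Averaged over the strength groups that the sites of each locus fell in, the genome's share called in both was 36.6% for GATA2 and 35.7% for GATA1, and the shares measured there were 20.0% and 18.2%. Whether these few sites differ from others of like strength was not tested. Of the 21 sites of both loci 3 were in the strongest group, and each of those 3 was called again in both.

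EVI1 sites were called again more often. At GATA1, 10 of 10 were called in both dox libraries, against 78.1% of 40449 in the genome. The mean share over the 2 dox libraries was 100% at GATA1 and 66.7% ± 23.6 at GATA2, beside 84.5% ± 5.20 in the genome. At GATA2, 5 of 12 were called in both, 6 were called in a single one and 1 in neither. In the genome 78.1% were called in both and 9.01% in neither. The single missing site lay 25.2 kb upstream of GATA2, with EVI1 at 5.5 and 6.2 untreated. In 5 of the 6 sites called once, dox replicate 1 had the peak. With EVI1 sites grouped by strength as for CTBP2, the genome's share called in both averaged 68.8% for GATA2 and 80.7% for GATA1. The shares measured there were 41.7% and 100%. For EVI1 too, a difference from sites of like strength was not tested. Of sites called in all 4 libraries, EVI1 was lower in both dox libraries at 2 of 5 at GATA2 and 5 of 10 at GATA1 (35.3% in the genome) and higher in both at 0 and 3 (13.4%). CTBP2 was lower at 2 of 2 and 2 of 2 (72.5%). These comparisons took the strongest peak of each list within a site, whose summits can differ between lists. Since the look-up starts from untreated sites, it cannot count sites that appear only with dox. At 4.650 kb upstream of the GATA2 TSS, EVI1 had a peak in both dox libraries (6.2 and 3.9) and in neither untreated one. CTBP2 there was at 3.6 in dox replicate 1 alone. How often such sites occur in the genome was not counted.

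**Figure D4:**
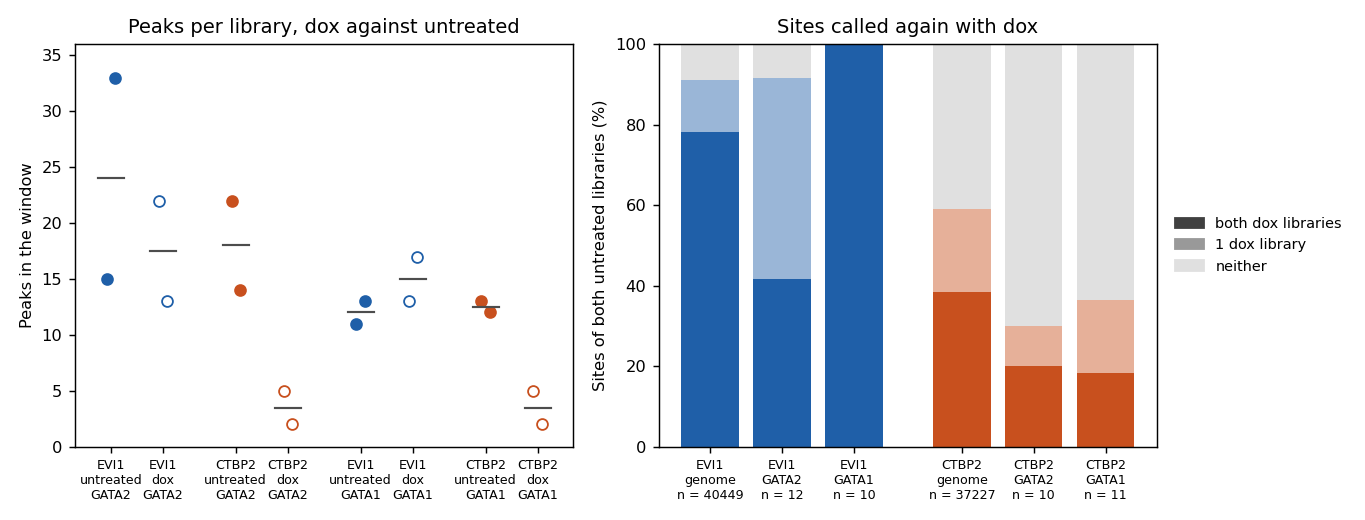
Left, number of peaks in each window per library (points, filled for untreated and open for dox, with a line at the mean of 2 libraries). Right, percent of the sites called in both untreated libraries that were called again in both dox libraries (dark), in 1 (light) or in neither (grey), for the genome and each locus with the number of sites under each bar; CTBP2 has 7 of 10 sites at GATA2 and 7 of 11 at GATA1 in the grey class, EVI1 has 1 of 12 and 0 of 10.

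EVI1 and CTBP2 were mostly found together in the inducible cells. Of the CTBP2 sites that both untreated libraries shared, 8 of 10 at GATA2 and 10 of 11 at GATA1 overlapped an EVI1 site called in both, beside 82.5% in the genome. In the other direction it was 7 of 12 EVI1 sites at GATA2 and 10 of 10 at GATA1, beside 75.9%. Over all 13 lists, 20 of the 49 GATA2 sites had both proteins, 18 had EVI1 alone and 11 CTBP2 alone, and at GATA1 the numbers were 11, 3 and 2. In the genome 44.6% had both, 22.6% EVI1 alone and 32.7% CTBP2 alone. At GATA2, 25 of 49 sites were called in 1 list, and at GATA1 5 of 16, beside 46.1% in the genome.

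In unmodified MUTZ3 cells few peaks were called. EVI1 had 3 at GATA2 and 5 at GATA1, and CTBP2 had 1 and 2, all with 1 library and so without replicate error. Of the EVI1 peaks, 1 of 3 at GATA2 (33.3%, Wilson 95% interval 6.15 to 79.2, counting error only) and 0 of 5 at GATA1 (up to 43.4%) overlapped a CTBP2 peak, beside 43.0% of the list. The shared one was the distal site. At GATA1 both proteins had a peak within the WAS site, but these did not touch. Of the CTBP2 peaks, 1 of 1 and 0 of 2 overlapped an EVI1 peak, beside 54.5% of the list. All 3 and all 5 EVI1 peaks overlapped a CTBP2 site of the untreated inducible cells, beside 78.2% of the list. Those CTBP2 lists were longer, came from doubly crosslinked chromatin and from cells with the peptide construct, which cannot be told apart here. The PLASS control lists differed from each other, with 0 peaks at either locus in replicate 1, whose list is the shortest, and 7 at GATA2 and 3 at GATA1 in replicate 2.

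MOLM1 cells had dense CTBP2 binding at GATA2 and little at GATA1. The MOLM1 list had 27 peaks at GATA2, more than 92.0% of protein-coding gene windows had in that list, and 5 at GATA1, more than 22.0%. Its strongest peak at GATA2 was not the distal site but a peak 99.036 kb upstream (chr3:128310681-128311315), with a fold enrichment of 25.6 and rank 1163 of 64569, called in no other list. Peaks at 92.2 and 95.1 kb upstream reached 13.7 and 14.04, and the second of these was in MOLM1 alone. Of the 22 GATA2 sites with a MOLM1 peak, 13 had a CTBP2 peak in some MUTZ3 list and 14 an EVI1 peak, and 6 were in MOLM1 alone. Over the 56541 MOLM1 sites of the genome these shares were 59.7%, 57.1% and 35.5%. At GATA1, 4 of 5 MOLM1 sites had a MUTZ3 CTBP2 peak.

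Against the unmodified MUTZ3 lists, the single CTBP2 peak at GATA2 and 1 of 2 at GATA1 were found in MOLM1, beside 70.2% of the list. In turn, 1 of 27 MOLM1 peaks at GATA2 (3.7%) and 1 of 5 at GATA1 overlapped a CTBP2 peak of unmodified MUTZ3, beside 18.7%, and 3 of 27 and 1 of 5 overlapped an unmodified EVI1 peak, beside 23.8%. List length, cell line, the crosslink and the hairpin construct of the MOLM1 clone differ together in these pairs and cannot be told apart. An EVI1 list of MOLM1 was not analysed here.

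Other genes of the GATA pathway were followed in the same windows, on a list of 27: other GATA family members, cofactors and complex partners, and genes known to be bound by GATA factors in blood cells. CTBP2 had fewer peaks in both dox libraries at 22 of 27 and more at 0, beside 80.5% and 0.0943% of all gene windows. EVI1 had fewer at 4 and more at 0, beside 19.9% and 3.58%. The list was thus near the genome on both counts. Of their CTBP2 sites, 143 of 365 (39.2%) were called in both dox libraries, and of their EVI1 sites, 310 of 396 (78.3%), both close to the genome shares above. The family members GATA3, GATA4, GATA5 and GATA6 had 6 of 27 CTBP2 sites called again in both (22.2%), partners 77 of 204 (37.7%) and targets 60 of 134 (44.8%). GATA3, the lymphoid member of the family, had 4 and 8 CTBP2 peaks untreated and 1 and 1 with dox. CBFA2T3, a corepressor in GATA1 complexes, had 77 and 35 untreated and 17 and 9 with dox. RUNX1, a factor of blood stem cells, had 34 and 53 against 19 and 23, and 64 in MOLM1. MYB, needed by blood progenitors, had 8 and 16 untreated and 7 and 8 with dox, groups that met at 8.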

How the data were processed

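Peak lists of 13 ChIP-seq libraries were analysed. The authors aligned reads to hg19 with bowtie (1.1.1 per the submitters' processing notes) and made 1 peak list per library with MACS2 (2.1.2), default parameters and matched input. The deposited fold enrichment is a ratio of signal to local background at the summit. The deposited −log10 q and −log10 p come from MACS2. The deposited display score was not used. Where the labels and the study's sample table differ on the crosslink of the MOLM1 and 4xPLASS libraries (double against single), the labels were followed.

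Peaks overlapping a window by 1 bp or more were counted. A site is a merged interval, and a site called again overlaps a dox peak. The 5 strength groups rank sites by fold enrichment in untreated replicate 1. Counts and mean log2 fold enrichment were compared by exact two-sided permutation, 2 libraries against 2. The authors' comparison of reads in peaks could not be repeated without reads.

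The 2 genes, the gene list, the motifs and the alternatives were chosen with earlier results of these data known. Sites are named if they are among the 5 of most lists per window, overlap a GATA1 or GATA2 start, lie 100 to 120 kb upstream of GATA2, were called in both untreated CTBP2 libraries and in no dox one, or hold the strongest peak of a list; others named, and any pathway genes named, were chosen after their values were seen. Alternatives were stricter peak thresholds, another window, another overlap, equal list sizes, another site definition, replicates left out and a replicate block. Sequences came from the GRCh37 primary assembly and gene models from GENCODE release 44 mapped to it. Overlap code was tested on simulated lists and against bedtools 2.31.1. Software: pysam 0.24.0, pandas 2.3.3, numpy 2.4.6, matplotlib 3.10.9 and scipy 1.17.1 under Python 3.11.15.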

Additional observations from a re-analysis of the deposited data

How the results depend on the processing

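Differences in CTBP2 peak number kept their sign at both loci under every alternative run. With lists of equal size they were -1.5 and -3, and the groups no longer separated (exact two-sided permutation p = 0.667 for each). With a library left out they lay between -18.5 and -10.5 at GATA2 and between -10.5 and -7.5 at GATA1. For EVI1 they ranged from -15.5 to 2.5 at GATA2, the one reversal coming without untreated replicate 2, and from 1 to 5 at GATA1. The EVI1 difference was 0 at GATA2 with lists of equal size, and 0 at GATA1 with a fold enrichment of at least 5 or 60 kb on either side. The share of CTBP2 sites called again at GATA2 was 33.3% with a −log10 q of at least 5, 16.7% with a fold enrichment of at least 5, 10.9% for sites of either untreated library and 66.7% with lists of equal size (3 sites). At GATA1 it was 41.7% with the stricter q and 62.5% with lists of equal size (4 sites), beside 74.3% of 15409 sites in the genome at that size. For EVI1 sites at GATA2 it was 66.7% as reported, 42.9% with a fold enrichment of at least 5, 36.8% for sites of either library, 75% with the stricter q and 72.2% with lists of equal size, and at GATA1 it was 100% as reported, 88.9% with a fold enrichment of at least 5 and 84.6% for sites of either library. In the paired form with the replicate block, where peaks of each untreated library are looked up in the dox library of the same number, it was 13.96% for CTBP2 at GATA2 and 92.3% for EVI1 at GATA1. Deviations of same-numbered libraries correlated at 0.21 for CTBP2 and -0.23 for EVI1, over sites called in all 4, and the labels do not say that a number pairs libraries. With the EVI1 numbers crossed 23 of 48 peaks at GATA2 and 21 of 24 at GATA1 (87.8% as a mean over libraries) were called again. In unmodified cells the share of EVI1 peaks with a CTBP2 peak at GATA2 was 0% within 60 kb of the gene (0 of 1), and against CTBP2 sites of the untreated inducible cells it was 100% at both loci. The causes of these shifts were not tested. No value could be given within 60 kb for EVI1 peaks in unmodified cells at GATA1, or for CTBP2 peaks found in MOLM1 at either locus within 60 kb and at GATA1 under the stricter thresholds, since no peak was left. The log2 differences at the GATA2 distal site were added after the data were seen: that of CTBP2 was -0.44 relative to the median of all sites called in all 4 libraries and -1.63 to -0.95 with a library left out, that of EVI1 -0.34 and -0.98 to -0.15. With 2 libraries per group no test could pass 0.05.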
